A study of Mus musculus with 24 samples.

Results

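The genes described are the nuclear genes of the mitochondrial respiratory chain and ATP synthase, measured in kidneys of the megabladder (mgb-/-) mouse. They were chosen by name: symbols starting Ndufa, Ndufb, Ndufc, Ndufs, Ndufv, Uqcr, Cox4i, Cox5, Cox6, Cox7, Cox8 or Atp5, together with Sdha to Sdhd, Cycs and Cyc1. The mouse RefSeq table holds 117 such genes, 98 protein-coding and 19 pseudogenes, and 95 of them had a named probe. Of these 95, Cox7b2 and Cox8c were well above background on 0 of 24 arrays, and the other 93 passed the filter on low signal, well above background on at least 5 arrays. They stood among 27971 genes and unnamed transcripts tested, 16501 of them named genes. By complex, 36 of the 93 belong to complex I, 4 to complex II, 9 to complex III, 17 to complex IV and 17 to complex V, and 1 is cytochrome c. The prefixes also take in 9 genes whose products are not subunits of a single complex, the 8 assembly factors Ndufaf1 to Ndufaf8 and Cox7a2l, and these were counted apart from the 84 subunits.

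All kidneys came from age-matched male mice, labelled young adult and, by the study's methods, a few weeks old. The 6 control kidneys were mgb+/+. The 18 mgb-/- kidneys carried congenital hydronephrosis, a widening of the urine-collecting space behind an atonic bladder, and had been graded by ultrasound from the parenchyma that was left as mild (7 kidneys), moderate (5 kidneys) or severe (6 kidneys). No kidney received a treatment. Each kidney was extracted whole, and its RNA went with a single dye onto an Agilent 8x60K array of its own. Every level below is the log2 of the processed signal minus the array's 75th percentile, so that 0 marks the 75th percentile, and it is compared only within a gene. A gene was called where limma's moderated test gave a Benjamini-Hochberg adjusted p under 0.05 over all 27971 features.

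The respiratory chain passes electrons from NADH (complex I) and succinate (complex II) through coenzyme Q, complex III and cytochrome c to oxygen at complex IV, and complex V uses the proton gradient to make ATP. Complexes I, III, IV and V are built from subunits encoded in the nucleus and in the mitochondrial genome, whereas complex II is wholly nuclear. In the kidney the proximal tubule and the thick ascending limb are rich in mitochondria, which power sodium reabsorption. The subunits encoded by the mitochondrial genome had no named probe and were not analysed here.

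Promoters are shown for 6 members to which the results return: Ndufab1, Ndufa10, Cycs, Sdha and Sdhd, which fell in severe kidneys, and Cox6a1, among the least changed. Each is the 250 bases before the gene's start in RefSeq (GRCm38.p6, minus strand in every case), and 76 of the 93 members had an entry. Capitals mark motifs that can be read on either strand: the core bound by nuclear respiratory factor 1 (NRF1), which is GCGCA and GCGC with 1 base of any kind between them, CCGGAAG, bound by ETS factors such as GABP, and TGACGTCA, the cyclic AMP response element (CRE).
Ndufab1, chr7:122101849-122102098: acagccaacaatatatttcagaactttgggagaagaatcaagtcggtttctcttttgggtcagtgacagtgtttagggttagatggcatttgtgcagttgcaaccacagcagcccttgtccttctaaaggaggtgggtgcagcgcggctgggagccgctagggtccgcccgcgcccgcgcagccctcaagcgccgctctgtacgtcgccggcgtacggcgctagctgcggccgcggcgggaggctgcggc
Ndufa10, chr1:92473759-92474008: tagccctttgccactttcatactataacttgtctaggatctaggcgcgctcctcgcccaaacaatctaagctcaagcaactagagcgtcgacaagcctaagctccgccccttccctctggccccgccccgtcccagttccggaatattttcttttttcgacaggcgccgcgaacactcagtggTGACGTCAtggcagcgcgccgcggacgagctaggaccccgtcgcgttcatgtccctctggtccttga
Cycs, chr6:50566570-50566819: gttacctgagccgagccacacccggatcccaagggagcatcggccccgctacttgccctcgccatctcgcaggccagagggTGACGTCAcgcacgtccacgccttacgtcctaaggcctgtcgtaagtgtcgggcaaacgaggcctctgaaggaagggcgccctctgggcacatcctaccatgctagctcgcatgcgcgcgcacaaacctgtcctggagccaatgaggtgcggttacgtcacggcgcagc
Sdha, chr13:74350241-74350490: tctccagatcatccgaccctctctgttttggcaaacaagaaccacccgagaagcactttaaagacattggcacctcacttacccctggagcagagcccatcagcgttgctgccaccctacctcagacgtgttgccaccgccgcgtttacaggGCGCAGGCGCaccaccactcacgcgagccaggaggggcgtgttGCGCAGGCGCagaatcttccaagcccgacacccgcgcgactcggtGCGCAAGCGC
Sdhd, chr9:50603850-50604099: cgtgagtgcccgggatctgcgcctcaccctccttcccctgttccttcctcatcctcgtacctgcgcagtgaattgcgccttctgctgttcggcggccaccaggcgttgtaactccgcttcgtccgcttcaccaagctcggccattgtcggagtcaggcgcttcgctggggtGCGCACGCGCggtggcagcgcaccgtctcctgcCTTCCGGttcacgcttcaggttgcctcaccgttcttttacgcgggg
Cox6a1, chr5:115348959-115349208: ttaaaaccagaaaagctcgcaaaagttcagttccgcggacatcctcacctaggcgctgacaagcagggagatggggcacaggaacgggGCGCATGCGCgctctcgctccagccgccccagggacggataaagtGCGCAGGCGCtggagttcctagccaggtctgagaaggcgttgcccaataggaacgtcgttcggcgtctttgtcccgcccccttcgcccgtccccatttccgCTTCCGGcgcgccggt
Sdha holds 3 NRF1 matches, the last ending 1 base before the start. Sdhd holds an NRF1 match and an ETS match (read as CTTCCGG on the strand shown), and Cox6a1 holds 2 NRF1 matches and 1 ETS match. Ndufa10 and Cycs hold a CRE each, and the Ndufab1 window holds 0 matches to any motif searched. The NRF1 motif lay in 14 of the 76 member promoters (18.4%) and in 4.23% of all 27025 promoters of the same length. The ETS motif lay in 18.4% of member promoters and 7.83% of all, and the CRE in 6.58% and 1.77%. TCAAGGTCA, read by oestrogen-related receptors, was in 1 member promoter (1.32%, against 0.422% of all), and AANATGGCG, read by YY1, in 3 (3.95%, against 1.29%). None of the 5 motifs is contained in another, and a promoter was counted once per motif. At least 1 of them was present in 8 of the 18 members with a promoter entry that were called in severe kidneys (44.4%) and in 24 of the 58 that were not (41.4%). The CRE was added to the search after the Ndufa10 and Cycs sequences had been seen, and it lay in 4 of those 18 and 1 of those 58. The counts of at least 1 motif include these CRE matches, so their likeness cannot be read as a result. The NRF1 motif lay in 3 of the 18 and 11 of the 58, and the ETS motif in 2 and 12. The motif of oestrogen-related receptors lay in 0 and 1, and that of YY1 in 0 and 3. A match describes these letters only, and binding was not measured.

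Each of the 3 slides carried 8 arrays, of which 2 were of controls. The share of probes detected above background was 56.6% to 71.5%, and 0 spots were saturated. Severe replicate 4 had 660 spots marked as outliers, against 102 to 261 on the other arrays, and so had no value for 5 members (Ndufb10, Ndufb7, Ndufv3, Atp5k and Atp5o), whose severe means rest on the other 5 kidneys. Severe replicate 5 stood apart: its mean over 14 proximal tubule markers was 5.02, against 6.22 to 7.16 in the other 23 kidneys, and its mean levels of the leukocyte and of the fibroblast and smooth muscle markers (0.69 and 3.98) were the highest of all. Results that rest on these 2 kidneys are given with and without them. The labels do not say whether any 2 kidneys came from 1 mouse, so the p-values measure the spread between kidneys.

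The mean level over the 84 subunits ran from 6.26 to 6.61 in control kidneys, with a mean of 6.41 ± 0.12 (SD, n = 6). It was 6.20 to 6.35 in mild kidneys. The 5 moderate kidneys had means of 6.07, 6.33, 6.02, 6.19 and 6.51. In severe kidneys the means were 6.00, 6.11, 6.23, 6.30, 5.18 and 6.35, so that 1 kidney, replicate 5, lay far below the rest and 2 others lay within the control range. The SD of a member, taken as the median over the 93, was 0.16 in controls and 0.11 in the mild grade, but 0.25 in the moderate and 0.47 in the severe grade, where it was 0.19 without replicate 5. Whole-kidney RNA cannot tell fewer mitochondria-rich cells from less RNA per cell.

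**Figure D1:**
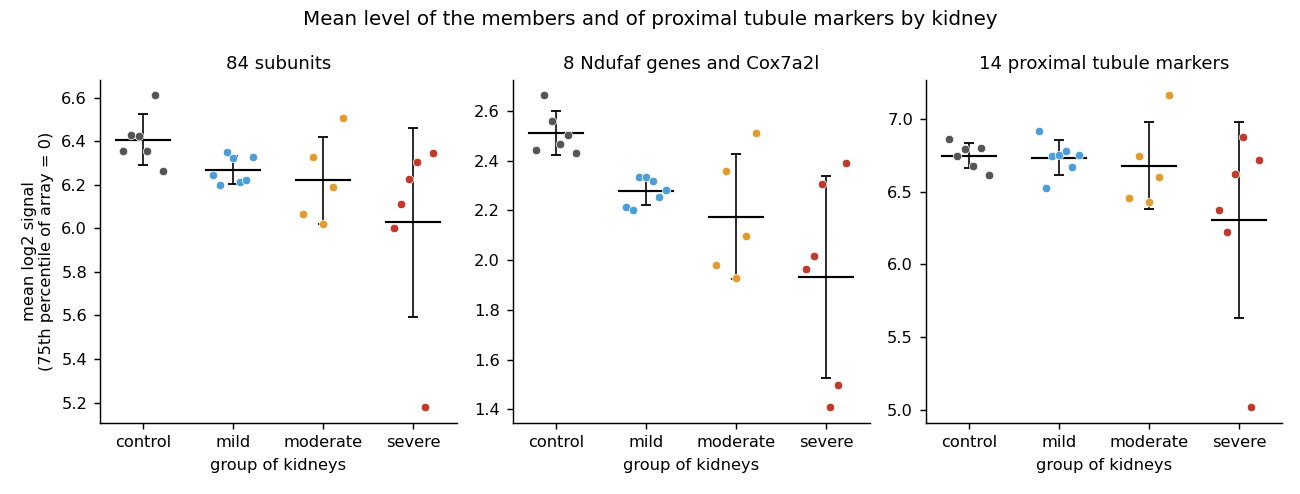
Mean log2 signal (75th percentile of the array at 0) over the 84 subunits, the 9 Ndufaf and Cox7a2l genes and 14 proximal tubule markers; each point is 1 kidney, the long line the group mean and the bar its SD. Severe replicate 5 is the lowest point for subunits (5.18) and for proximal tubule markers (5.02), while the mild kidneys sit close together between 6.20 and 6.35 for the subunits.

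Kidneys of the same grade differed widely in how many members lay low. These counts were made for the members only and not over all features, so they cannot set the members apart from other genes. Some genes of any kind fall outside the range of 6 controls by chance. A mild kidney had between 25 and 63 of 93 members below the lowest control kidney. Moderate replicates 1, 3 and 4 had 81, 77 and 63 members below every control, but moderate replicates 2 and 5 had 15 and 3, and moderate replicate 5 had 26 above the highest control. Severe replicates 1, 2, 3 and 5 had 75, 64, 37 and 89 below the controls, severe replicate 4 had 26 of 88, and severe replicate 6 had 10, with 80 inside the control range. Severe replicate 6 and moderate replicate 2 thus had the most members inside the control range (80 and 78). Moderate replicate 5 had 64 inside it, and its median member lay 0.16 over the control mean.

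In the comparison of all 18 mgb-/- kidneys with the 6 controls, 5 members fell, 0 rose and 88 were not called. Genes that fell made up 5.38% of the members and 8% of all features (13.3% of features were called in all and 5.34% rose), so the count of calls was no higher among the members than elsewhere. The changes nevertheless leaned one way: 88 of 93 members had a negative log2 change, with a median of -0.24 against 0.01 over all features and -0.03 over named genes. At an unadjusted p under 0.05, 30 members were lower and 1 was higher, while 16.7% of all features were lower at that level. Genes are not independent replicates, and the members share their arrays. By complex the median change was -0.23 for complex I, -0.31 for complex II, -0.25 for complex III, -0.49 for Cycs, -0.11 for complex IV, -0.21 for complex V and -0.39 for the Ndufaf and Cox7a2l genes.

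The member with the smallest adjusted p was Ndufab1, the mitochondrial acyl carrier protein, which serves both as a subunit of complex I and in fatty acid synthesis. It lay between 2.57 and 2.98 in control kidneys (median 2.80) and between 1.38 and 2.66 in mgb-/- kidneys (median 2.30). All 18 mgb-/- kidneys were below the control mean, and 1 of them, severe replicate 6 at 2.66, reached into the control range. Ndufab1 fell by 0.56 on the log2 scale (SE 0.14, adjusted p = 0.0139, limma). Ndufa10, an accessory subunit of the membrane arm, ran from 5.19 to 5.49 in controls and from 3.56 to 5.35 in mgb-/- kidneys, and fell by 0.55 (SE 0.18, adjusted p = 0.0476). Moderate replicates 2 and 5 and severe replicate 6 lay inside the control range of Ndufa10 and the other 15 mgb-/- kidneys below it. Its call was lost without severe replicate 1 or 2 and with the slide as a block. The assembly factors Ndufaf2 (-0.35, SE 0.09, adjusted p = 0.0145, all 18 below the control mean) and Ndufaf3 (-0.43, SE 0.13, adjusted p = 0.0281, 17 of 18) also fell. The fifth was Cox6a2, described below with the isoforms. Cycs (-0.49, SE 0.18) had a change of like size that was not called.

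Leaving out 1 kidney moved the number of members that fell between 2 and 12. It was 12 without severe replicate 5 (9.34% of all features were then called lower), 11 without moderate replicate 5 (2814 of 27971 features) and 8 without severe replicate 6 (10%). It was 3 without control replicate 4 (4.94%) and 2 without control replicate 3 (3.75%) or 5 (5.87%). Without severe replicates 4 and 5 together it was 16 (10.2%). The count over all features thus moved as well. Within a slide, the median member was lower in mgb-/- kidneys by -0.18 on slide 1, -0.39 on slide 2 and -0.11 on slide 3, with 86, 91 and 71 of 93 members lower. With the slide as a block, 5 members fell (7.46% of all features), 4 of the 5 above and Ndufaf8.

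The 3 grades were each set against the same 6 controls, so their results share those kidneys. In mild kidneys 0 members were called (limma; 6.02% of all features were called, 3.01% lower and 3.01% higher), with 5 lower and 1 higher at an unadjusted p under 0.05 against 11.5% of all features lower. The median change was -0.15 and 83 of 93 members were negative, but the lean was smaller under other scalings: quantile normalization gave a median of -0.049 with 64 negative and the authors' normalized table -0.046 with 65. The widest gaps were in Cox6a2 (-0.78, adjusted p = 0.115), Ndufa10 (-0.43), Ndufab1 (-0.41) and Cycs (-0.40). Cycs ran from 6.63 to 7.06 in the 7 mild kidneys and from 7.16 to 7.38 in the 6 controls, with no overlap. Ndufab1 likewise did not overlap, at 2.22 to 2.51 in mild kidneys. When only the 13 mild and control kidneys were fitted, so that the wide spread of the other grades did not enter, 15 members fell and 11.6% of all features were called lower.

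In moderate kidneys 0 members were called (limma; 1.2% of all features called, 0.554% lower and 0.647% higher), with 9 lower and 1 higher at an unadjusted p under 0.05 against 10.3% of all features lower. The median change was -0.20 and 87 members were negative. Ndufab1 stood at 1.95, 2.45, 1.73, 2.07 and 2.56 in the 5 moderate kidneys, all below the lowest control of 2.57, and its change of -0.63 missed the threshold (adjusted p = 0.0743). Cycs, at 6.58, 7.30, 6.42, 6.77 and 7.28, showed the division among these kidneys: replicates 2 and 5 were inside the control range and the other 3 below it.

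Severe kidneys held most of the calls. Of 93 members 23 fell, 0 rose and 70 were not called, and 24.7% of members fell against 9.55% of all features (16.1% of features were called in all and 6.56% rose). The median change was -0.37, 90 members were negative, and 51 were lower at an unadjusted p under 0.05 against 18.3% of all features. The 23 were 18 of the 84 subunits and 5 of the 9 other genes, and they included all 5 members called in the comparison of all mgb-/- kidneys. The median proximal tubule marker changed by -0.39 in the same comparison, with 12 of 14 markers negative and 1 called, Slc5a2, the glucose transporter of the early proximal tubule (-1.16, adjusted p = 0.027). The mean over the 14 markers was 6.37, 6.22, 6.62, 6.88 and 6.72 in severe replicates 1, 2, 3, 4 and 6. It was 5.02 in severe replicate 5 and 6.62 to 6.86 in controls, so the marker change also rested in part on replicate 5. The part of proximal tubule loss in the members' changes was not tested.

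**Figure D2:**
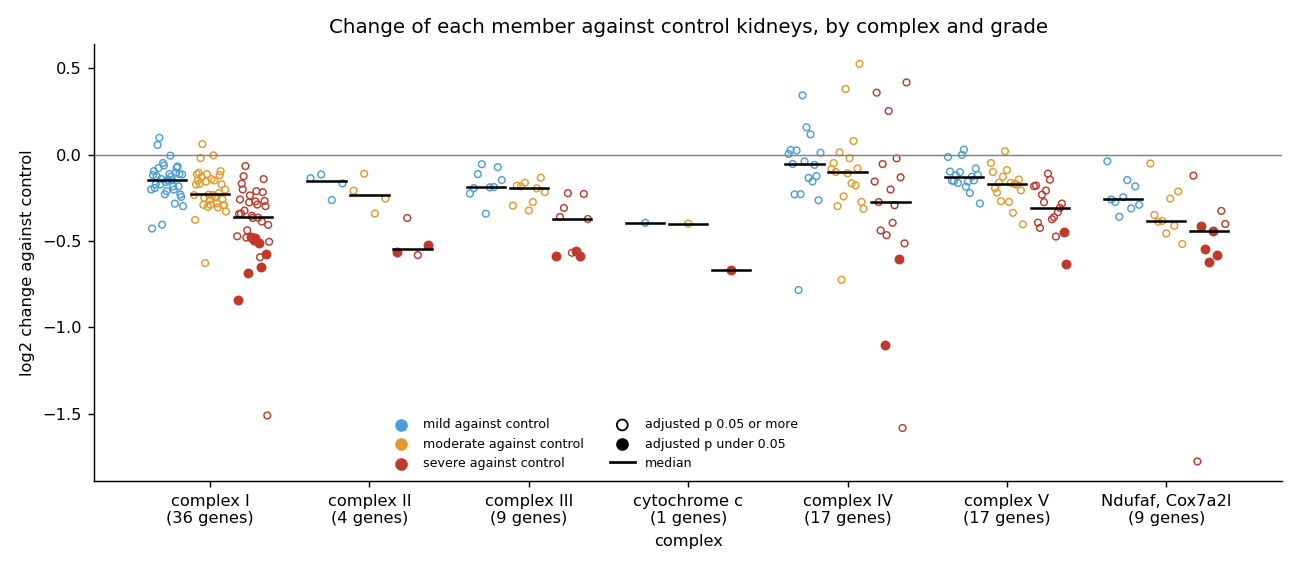
Log2 change of each member in mild, moderate and severe kidneys against the 6 controls, by complex; filled points have an adjusted p under 0.05 (limma) and lines are medians. The medians of severe kidneys run from -0.67 for cytochrome c to -0.28 for complex IV, and the filled points are all from severe kidneys.

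In complex I, 8 of 36 subunits fell in severe kidneys and the median change was -0.36. Among them Ndufs8 belongs to the core that carries electrons along iron-sulphur clusters to coenzyme Q. It ran from 5.01 to 5.52 in controls and stood at 4.34, 4.53, 4.85, 5.04, 3.81 and 5.17 in the 6 severe kidneys. Severe replicates 4 and 6 lay within the control range of Ndufs8, which fell by 0.58 (SE 0.17, adjusted p = 0.0299, limma). Ndufa10 had severe values of 4.11, 4.25, 4.63, 4.86, 3.56 and 5.27, with replicate 6 alone in the control range. It fell by 0.84 (SE 0.21, adjusted p = 0.0127), or 1.79-fold. Ndufab1 fell by 0.69 (SE 0.17, adjusted p = 0.0125). The accessory subunits Ndufc2, Ndufb5, Ndufb2 and Ndufb6 also fell, with changes between -0.51 and -0.48. The core subunits Ndufs1 (-0.59), Ndufs3 (-0.39), Ndufs7 (-0.30) and Ndufv2 (-0.41) were lower but not called.

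In complex II, which is also succinate dehydrogenase of the citric acid cycle, the flavoprotein Sdha and the membrane anchor Sdhd fell. Sdha ran from 6.05 to 6.33 in controls and stood at 5.52, 5.49, 5.77, 5.93, 4.72 and 5.97 in severe kidneys. All 6 severe kidneys were below every control, and the change was -0.57 (SE 0.16, adjusted p = 0.0238, limma). Sdhd fell by 0.53 (SE 0.18, adjusted p = 0.0444), with severe replicate 4, at 6.99, inside its control range of 6.83 to 7.08. Sdhc, the other anchor, changed by as much (-0.58) but stood at an adjusted p of 0.05, and the iron-sulphur subunit Sdhb changed by -0.37 (adjusted p = 0.172). These values come from the brighter probe of each gene. The dimmer probe gave -0.76 for Sdhc and -0.66 for Sdhb.

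In complex III, 3 of 9 subunits fell. Uqcrfs1, the Rieske iron-sulphur protein, fell by 0.59 (SE 0.17, adjusted p = 0.0274, limma), and Cyc1, the cytochrome c1 that hands electrons to cytochrome c, fell by 0.59 (SE 0.20, adjusted p = 0.0447). The core protein Uqcrc2 fell by 0.56 (SE 0.17, adjusted p = 0.0303), from 6.78 to 7.04 in controls to 6.30, 6.40, 6.60, 6.66, 5.38 and 6.75 in severe kidneys, with no overlap. Its partner Uqcrc1 changed by -0.57 and was not called (adjusted p = 0.0644). Cycs, the somatic cytochrome c that shuttles between complexes III and IV, stood at 6.41, 6.59, 7.00, 6.70, 5.49 and 7.43 in severe kidneys against 7.16 to 7.38 in controls. Of the 6 severe kidneys 5 were below every control and replicate 6 was above them all. The mean fell by 0.67 (SE 0.22, adjusted p = 0.0399, limma), or 1.59-fold. The dimmer probes of Cycs gave larger changes, -0.97 and -1.26 in severe kidneys and -0.74 and -0.65 over all mgb-/- kidneys.

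Complex IV had the smallest median change among the complexes, -0.28 over its 17 members, and 2 of them fell. One was Cox7c, one of the small subunits in the membrane. It ran from 6.34 to 6.55 in controls and stood at 5.72, 5.85, 6.28, 5.67, 5.05 and 6.35 in severe kidneys. It fell by 0.60 (SE 0.17, adjusted p = 0.0197, limma), with severe replicate 6 just inside the control range. The dimmer probes of Cox7c gave smaller changes in severe kidneys, -0.33 and -0.44. The other 10 broadly expressed partners were not called. Among them Ndufa4 (-0.51, SE 0.19), Cox6b1 (-0.47, SE 0.18) and Cox5b (-0.44, SE 0.17) had 95% intervals below 0. Cox7b stood at -0.02, Cox6a1 at -0.06, Cox8a at -0.13, Cox4i1 at -0.16, Cox6c at -0.20, Cox5a at -0.28 and Cox7a2 at -0.29, all with intervals that include 0. For Cox6a1 the interval ran from -0.36 to 0.25 and 5 severe kidneys lay between 9.14 and 9.37, inside the control range of 8.94 to 9.45, with replicate 5 at 8.38. Without replicate 5 the changes of Cox7b, Cox6a1, Cox8a and Cox4i1 were 0.16, 0.10, 0.04 and 0.01.

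In complex V, 2 of 17 members fell, Atp5pb and Atp5o, both parts of the stalk that holds the catalytic head in place. Atp5pb ran from 5.72 to 6.31 in controls and stood at 5.15, 5.22, 5.62, 5.59, 4.39 and 5.85 in severe kidneys. Replicate 6 overlapped the controls, and Atp5pb fell by 0.63 (SE 0.19, adjusted p = 0.0267, limma). Atp5o fell by 0.45 (SE 0.15, adjusted p = 0.0469) over 5 severe kidneys. The subunits of the catalytic head were not called, with Atp5a1 at -0.18 (95% interval -0.52 to 0.15), Atp5b at -0.18 (-0.49 to 0.13) and Atp5c1 at -0.39 (-0.74 to -0.04). The 3 genes that encode the same membrane-ring subunit, Atp5g1, Atp5g2 and Atp5g3, changed by -0.28, -0.21 and -0.11.

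**Figure D3:**
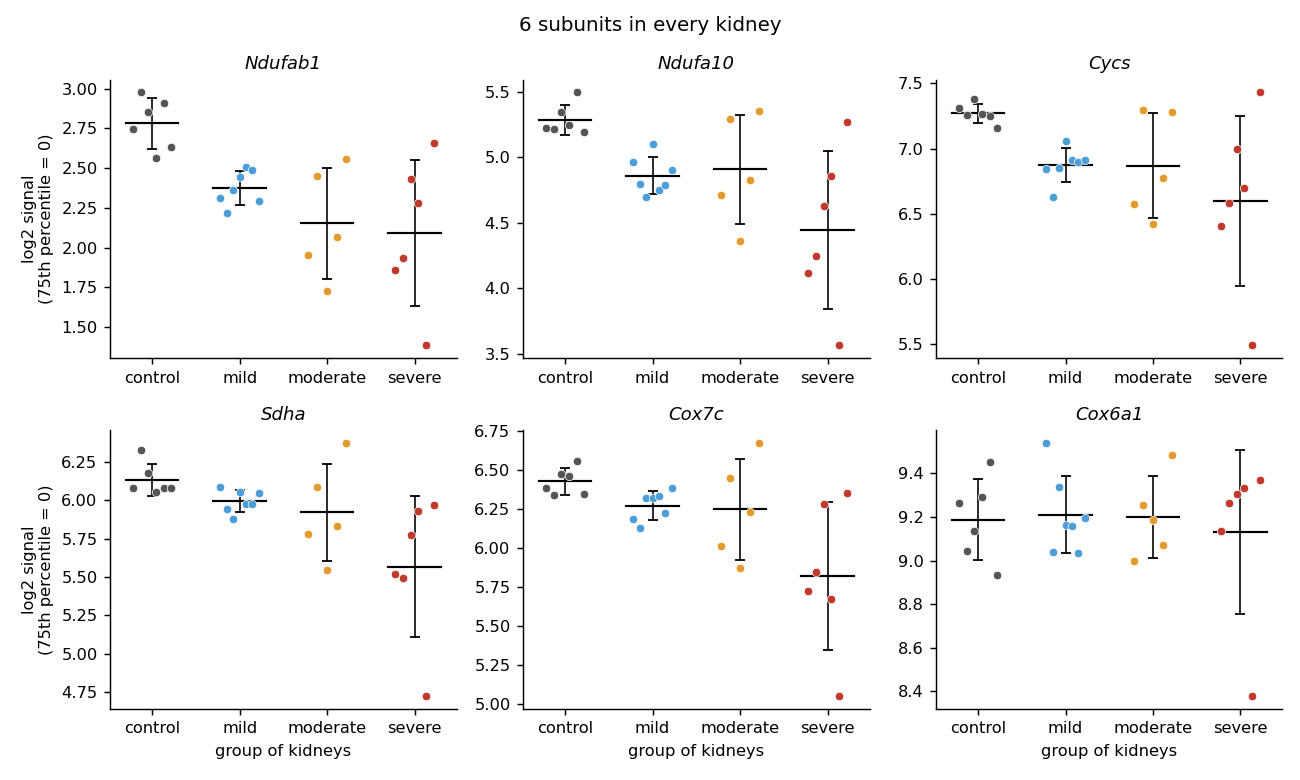
Log2 signal (75th percentile of the array at 0) of Ndufab1, Ndufa10, Cycs, Sdha, Cox7c and Cox6a1; each point is 1 kidney, the long line the group mean and the bar its SD. All 6 severe kidneys lie below every control for Sdha, 5 of 6 do for Cycs, and Cox6a1 overlaps except for severe replicate 5 at 8.38.

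Of the assembly factors, whose products help to build complex I and are not part of it, Ndufaf4 (-0.62, SE 0.18, adjusted p = 0.0229), Ndufaf6 (-0.58, adjusted p = 0.0384), Ndufaf3 (-0.55, adjusted p = 0.0234), Ndufaf5 (-0.44, adjusted p = 0.0131) and Ndufaf2 (-0.41, SE 0.11, adjusted p = 0.0181) fell in severe kidneys by limma. Ndufaf2 ran from 2.33 to 2.57 in controls and stood at 1.89, 1.98, 2.18, 2.31, 1.59 and 2.25 in severe kidneys. Its groups did not overlap, and neither did those of Ndufaf4 and Ndufaf5. Ndufaf5 was measured by 2 probes of opposite sign in severe kidneys, -0.44 for the brighter and 0.40 for the other. The other probe had a very low signal, -5.71 in controls and -5.30 in severe kidneys. It was well above background on 15 arrays, and the brighter probe on all 24. The mean of the probes gave -0.021 (adjusted p = 0.97, limma). Over all mgb-/- kidneys the change of Ndufaf5 was -0.28 with the brighter probe and 0.06 with the mean. Cox7a2l, which takes part in joining complexes III and IV, changed by -0.12 and was not called.

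The size of the severe comparison rested in part on 1 kidney. Without severe replicate 5, 10 members fell, every one of them among the 23: Ndufa10, Ndufab1, Sdha, Uqcrc2, Uqcrfs1, Cox7c, Cox6a2, Ndufaf2, Ndufaf4 and Ndufaf5. The median change was then -0.18, 80 members were negative, and 6.02% of all features were called lower. For Sdha the change was -0.40 (adjusted p = 0.0415, limma), for Ndufa10 -0.66 (adjusted p = 0.0281) and for Cycs -0.45 (adjusted p = 0.0822). The count was 42 without severe replicate 6 (15% of all features called lower), 6 without severe replicate 2 (4.29%) and 7 without severe replicate 1 (4.62%). Without control replicates 1 to 5 it was 15, 10, 8, 14 and 14, with 6.59%, 6.75%, 4.75%, 6.6% and 7.69% of all features. Without both severe replicates 4 and 5 it was 9 (4.91%). With the replicate number as a block it was 5, and 5.16% of all features were called lower, so that the members' share was close to the general one. When the severe and control kidneys were fitted alone, 0 members were called and 2.67% of all features were called lower. With the slide as a block 18 fell (8.54% of all features), all among the 23, and 1 rose, Cox4i2.

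**Figure D4:**
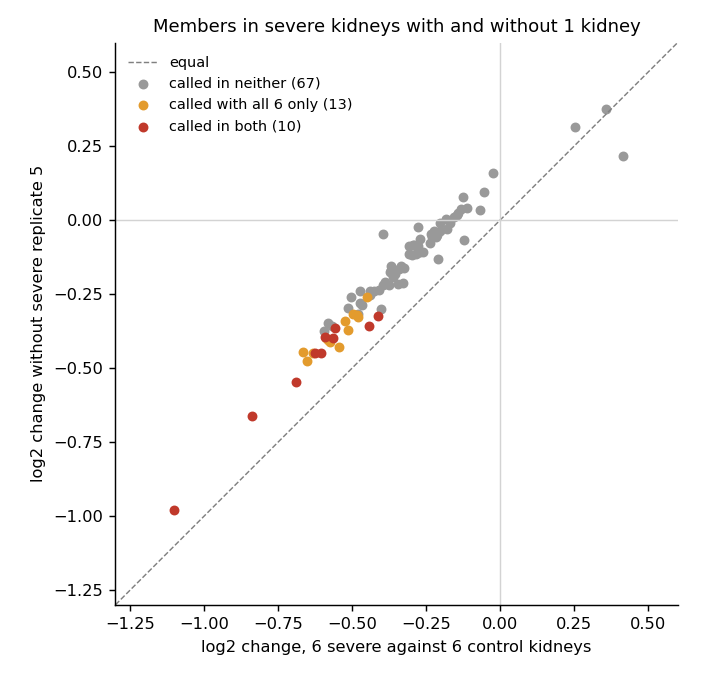
Log2 change of 90 members in severe against control kidneys with all 6 severe kidneys (x axis) and without replicate 5 (y axis); the dashed line is equality, and Ndufv1, Ndufaf1 and Cox8b, which lie outside the axes, are left out. Of the points, 89 lie above the line, 10 are called both ways and 13 with all 6 kidneys only.

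Within slide 2, which holds severe replicate 5, the median member was -0.81 in severe against control kidneys. It was -0.29 on slide 1, with 1 severe kidney, and -0.10 on slide 3, where 3 severe kidneys were lower for 63 of 93 members. Ndufa10 was lower on each slide (-0.98, -1.26 and -0.52), as was Ndufab1 (-0.72, -1.04 and -0.48).

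The largest changes of all in severe kidneys, apart from Cox8b, came from severe replicate 4. Ndufv1, the NADH-binding subunit of complex I, stood at 1.19 there and between 6.07 and 7.78 in the other 23 kidneys. Its change was -1.51 (SE 0.67, adjusted p = 0.127, limma) with that kidney and -0.55 (adjusted p = 0.0442) without it. Ndufaf1 stood at -6.08 in the same kidney, not well above background, and between 0.83 and 2.20 elsewhere, and its change went from -1.78 (adjusted p = 0.158) to -0.52 (adjusted p = 0.0245). Each gene has 1 probe. Without severe replicate 4, 34 members fell, 11.5% of all features were called lower and the median change of the members was -0.42.

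Several complex IV subunits exist in a general form and a form particular to heart, skeletal muscle, brown fat or lung. Cox6a2, the muscle form of subunit VIa, had the largest change called among the members. It ran from -1.66 to -1.15 in controls, from -2.83 to -1.69 in mild kidneys, stood at -2.87, -1.53, -2.48, -2.58 and -1.58 in moderate kidneys, and at -2.96, -3.53, -2.60, -1.58, -3.20 and -1.64 in severe ones. No mild kidney reached the control range, whereas moderate replicates 2 and 5 and severe replicates 4 and 6 did. It fell by 0.87 (SE 0.25, adjusted p = 0.0235, limma) over all mgb-/- kidneys and by 1.10 (SE 0.31, adjusted p = 0.0207) in severe ones, or 2.15-fold, while the general form Cox6a1 was at -0.06. Its signal was low throughout but well above background on all arrays.

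Cox4i2, the lung form of subunit IV, stood at -1.19 ± 0.17 (SD, n = 6) in severe and -1.55 ± 0.28 (SD, n = 6) in control kidneys. The difference of 0.36 was not called (adjusted p = 0.0974) except with the slide as a block. Ndufa4l2, a paralogue of the complex IV subunit Ndufa4 that is known as a hypoxia-responsive gene, was at 1.15, 1.15, 1.32, 0.80, 2.35 and 1.35 in severe kidneys against 0.58 to 1.32 in controls. Its change of 0.42 was not called (adjusted p = 0.26) and was 0.22 without severe replicate 5, the highest kidney. Cox6b2, the testis form of subunit VIb, was 0.32 higher over all mgb-/- kidneys (adjusted p = 0.102). Cox7a1, the muscle form of subunit VIIa, was between 4.47 and 5.15 in 5 severe kidneys and at 2.62 in replicate 5, against 4.50 to 5.23 in controls.

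Cox8b, the form of subunit VIII found in brown fat and muscle, varied most of all members, in every grade and among the controls. Its level was below 0 in 7 kidneys (control replicate 4, mild replicates 1 and 5, moderate replicate 5 and severe replicates 3, 5 and 6), from -3.93 to -0.99, and between 1.76 and 5.23 in the other 17. The same 7 kidneys had Ucp1, the uncoupling protein that defines brown fat, below 0. Severe kidneys differed from controls in Cox8b by -1.58 (SE 1.68), and no comparison called it. The labels do not give how much fat was taken with each kidney, and its part in the level of Cox8b was not tested.

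**Figure D5:**
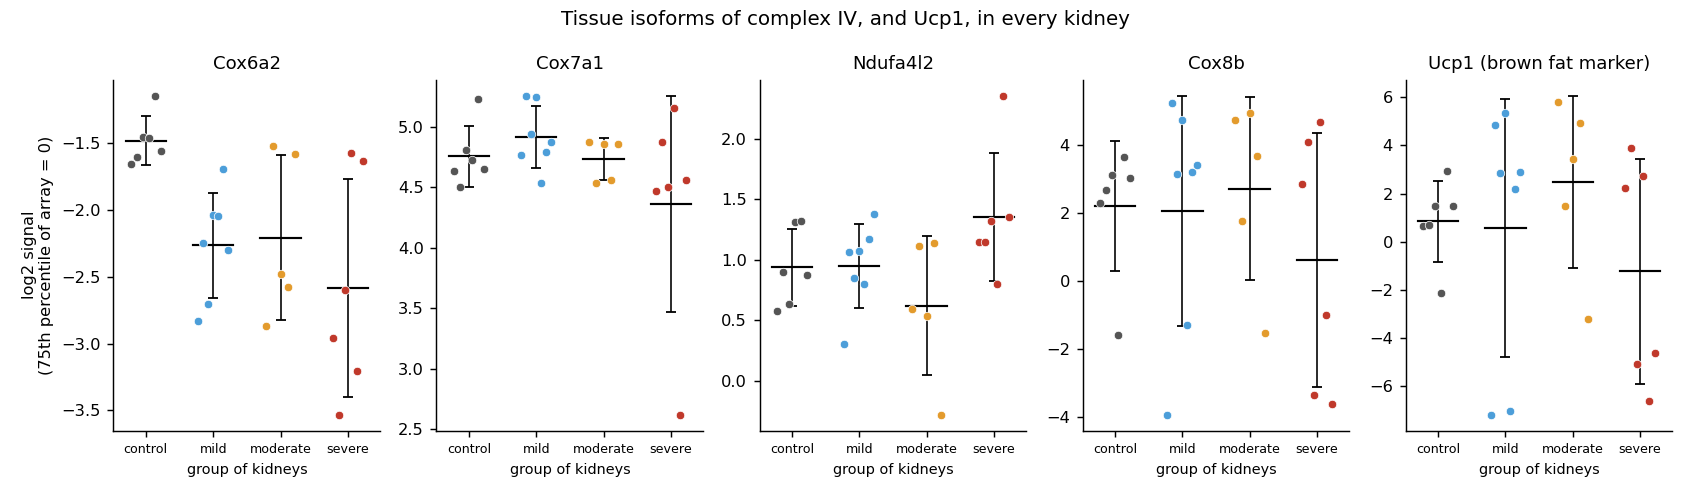
Log2 signal (75th percentile of the array at 0) of Cox6a2, Cox7a1, Ndufa4l2 and Cox8b, and of Ucp1 as a brown fat marker; each point is 1 kidney, the long line the group mean and the bar its SD. The 7 kidneys with Cox8b below 0 are those with Ucp1 below 0, and all 7 mild kidneys lie below the controls for Cox6a2.

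The grades were also compared with each other. Between severe and mild kidneys 0 members were called by limma (0.586% of all features), and the median change was -0.21. At an unadjusted p under 0.05, 12 members were lower and 1 higher, against 6.34% of all features lower. The smallest adjusted p was that of Cox7c (0.289), whose difference of -0.45 had a 95% interval of -0.78 to -0.12. For Sdha the difference was -0.43 (-0.75 to -0.10) and for Ndufab1 -0.28 (-0.62 to 0.06). Without severe replicate 5 the median was -0.03. Between moderate and mild kidneys 0 members were called (0% of all features) and 0 had an unadjusted p under 0.05 (6.68% of all features). The median was -0.05. Between severe and moderate kidneys 0 were called (0.00715% of all features). Unadjusted, 5 were lower and 2 higher, against 4.13% of all features lower and 10.4% in either direction. The slope on the grade over the 18 mgb-/- kidneys called 0 members (0.232% of all features). By its unadjusted p, 4 were lower and 1 higher, against 4.65% of all features lower. The median slope was -0.10 per grade, and -0.02 without severe replicate 5.

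Genes that serve the chain without being part of it were counted from lists written by hand. For comparison, 8% of all features fell over all mgb-/- kidneys and 9.55% in severe ones, and 5.34% and 6.56% rose. Of 47 assembly factors tested, which include the 8 Ndufaf members, 16 fell over all mgb-/- kidneys and 24 in severe ones. The lowest was Acad9, an acyl-CoA dehydrogenase that also assembles complex I, at -1.23 (SE 0.25, adjusted p = 0.00373, limma) and -1.41 (SE 0.31, adjusted p = 0.00664). Its partners Tmem126b (-0.70 and -0.98) and Tmem126a (-0.69 and -0.98) fell in both. Of 15 genes of coenzyme Q synthesis and electron entry, 6 and 7 fell, among them in severe kidneys Etfdh, which passes electrons from fatty acid oxidation to coenzyme Q (-0.90), and Coq9 (-0.91). Of 77 mitochondrial ribosome genes, 27 and 34 fell and 1 rose in each, with Mrpl44 at -0.68 and -0.84 and Mrps6 at 0.60 and 0.67. Without severe replicate 5 the counts in severe kidneys were 11, 4 and 18 for these 3 lists, and over all mgb-/- kidneys 21, 9 and 30. Of all features 6.02% and 9.34% were then called lower.

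Of 19 genes of the citric acid cycle 0 fell over all mgb-/- kidneys and 7 in severe ones, led by Pcx (-0.76), Dld (-0.72) and Suclg1 (-0.70), and 3 fell without severe replicate 5. The inner-membrane list had 4 and 9 of 16 lower, with Apoo (-0.82) and Chchd3 (-0.72), which shape the cristae, and the fusion protein Opa1 (-0.56) in severe kidneys. That count was 2 without severe replicate 5. Of 9 genes of ATP exchange and membrane channels 1 and 3 fell, among them Vdac2 and Vdac3 in severe kidneys. Of 9 genes that handle superoxide and peroxide 0 and 1 fell, Sod2 at -0.64. In a list of 9 genes, 1 call is near the general shares of 8% and 9.55% called lower. Among 23 regulators of mitochondrial biogenesis 7 fell and 2 rose over all mgb-/- kidneys, where the coactivator Ppargc1b was at -0.58, Lrpprc, which stabilises mitochondrial mRNA, at -0.54 and the receptor Esrrb at 0.72. In severe kidneys 9 fell, led by the deacetylase Sirt3 (-0.81), and 1 rose. Of 18 glycolysis genes 2 rose and 2 fell over all mgb-/- kidneys, and 4 rose and 1 fell in severe ones, with Slc2a1, the glucose transporter, at 0.55 and 0.59 and Pfkp, a phosphofructokinase, at 0.52 and 0.63. The lactate exporter Slc16a3 was 2.07 higher in severe kidneys (SE 0.64, adjusted p = 0.0337), and without severe replicate 5 no glycolysis gene was called there (0 of 18).

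Markers of other cells also differed in hydronephrotic kidneys. Among all features 6.56% rose in severe and 3.01% in mild kidneys. In severe kidneys all 10 urothelium markers rose, with a median of 3.21, and 3 of 9 fibroblast and smooth muscle markers rose, with a median of 0.87. Of the 8 leukocyte markers tested 0 were called, with a median of 0.21. The red blood cell markers Alas2 (1.51) and Hba-a1 (0.94) were called higher in severe kidneys. The mean of 7 adrenal gland markers was 4.19 in mild replicate 4 and 4.05 in moderate replicate 1. It was -5.26 to -4.46 in controls, and the next highest kidney, mild replicate 2, was at -1.19. These lists and the members were measured in the same RNA, and the part of a changed mix of cells in the members' changes was not tested. In mild kidneys the mean of 9 collecting duct markers ran from 2.36 to 3.00, above the 2.05 to 2.33 of the controls, with 1 of 9 called higher. The mean of 8 thick limb and distal tubule markers was 3.71 in mild and 3.18 in control kidneys (1 of 8 higher), that of 7 podocyte markers ran from 1.22 to 1.99 and from 1.03 to 1.43 (1 of 7 higher), and that of 9 fibroblast and smooth muscle markers was 2.39 and 1.88 (0 called). The mean of 12 immediate early and hypoxia genes was also higher in every mild kidney (1.04 to 1.89) than in any control (0.31 to 0.56), with 4 called higher and 1 lower. The proximal tubule markers had medians of -0.01 in mild and -0.01 in moderate kidneys, with 0 of 14 called in each by limma, as with the members. The mean over the 14 was 6.73 in mild and 6.75 in control kidneys. Single markers differed: Slc34a1, the phosphate transporter of the proximal tubule, was lower in all 7 mild kidneys (7.55 to 7.91) than in any control (7.93 to 8.31). Its change of -0.33 was not called (adjusted p = 0.516, limma). Lrp2 overlapped, at 7.11 to 7.47 in mild and 7.10 to 7.50 in control kidneys.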

How the data were processed

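The authors deposited the scanner output of 24 one-colour Agilent 8x60K arrays, 1 per whole kidney, from Feature Extraction 10.10. Its processed signal is an intensity after background subtraction and spatial detrending within the array. The authors also deposited a table of normalized intensities, whose method is not given in the sources used here. Each array's 75th percentile (496 to 968 intensity units) was subtracted from the processed signal after log2. Outlier spots were left out and the spots of a probe averaged. The filter kept 38848 of 55681 probes, those the software marked as well above background on 5 arrays or more. The files hold no gene names: 26756 probes were named through accessions of the RefSeq table (GRCm38.p6), and 28925 kept their accession. The probe with the highest mean stood for a gene.

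limma 3.58.1 in R 4.3.3 was fitted with 2 groups for mgb-/- against control, with 4 groups for the grades, and with a slope on the grade (1, 2, 3) over the mgb-/- kidneys. The Benjamini-Hochberg adjustment ran over 27971 features, and the fit was tested on simulated data. The members and lists were chosen with earlier results of these data known. Genes named were core subunits, tissue isoforms, the largest called changes in each complex and the smallest p-values or largest changes in each comparison. Alternatives were other scalings, backgrounds, filters, probes, weights and blocks, and each kidney left out. The number of arrays limits the precision. Some items are not reported here. Motifs were searched with Python 3.11.15.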

Additional observations from a re-analysis of the deposited data

Results flagged for a closer look

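Within each group of kidneys, a value was noted where the gap from the highest or lowest kidney to its nearest neighbour was an unusually large share of the group's range (Dixon's ratio, tested in groups of 4 to 10). Chance alone notes about 1 in 20 groups. Over all 93 members in 4 groups, 71 of 372 were noted (19.1%), of which 50 were in severe kidneys, 15 in controls, 5 in the mild grade and 1 in the moderate.

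Severe replicate 5 was the lowest kidney in most of these, and was noted as the lowest for 47 of 93 members. Among the members named by rule its ratios were, in complex I, 0.673 for Ndufb5, 0.677 for Ndufs3, 0.700 for Ndufs7 and 0.683 for Ndufv2, and in complex II 0.726 for Sdhb and 0.652 for Sdhc. In complex III they were 0.670 for Uqcrc2 and 0.651 for Uqcrfs1. In complex IV they were 0.751 for Cox4i1, 0.662 for Cox5a, 0.656 for Cox5b, 0.765 for Cox6a1, 0.730 for Cox7a1, 0.704 for Cox7a2, 0.755 for Cox7b, 0.681 for Cox8a and 0.679 for Ndufa4. In complex V they were 0.710 for Atp5a1, 0.703 for Atp5b, 0.739 for Atp5g3 and 0.717 for Atp5o, and the assembly factor Ndufaf4 had 0.779. The mean over the 84 subunits had 0.703. The same kidney was the highest for Ndufa4l2, at 0.644. The report gives the severe comparison with and without it.

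Severe replicate 4 was the lowest for Ndufaf1 (0.861) and Ndufv1 (0.762), each measured by 1 probe.

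In control kidneys, replicate 5 was the highest for Atp5g2 (0.645), Ndufaf3 (0.654), Ndufv1 (0.634) and Uqcrc1 (0.753). Control replicate 2 was the highest for Cox7b (0.679) and Ndufv2 (0.690). Control replicate 4 was the lowest for Cox8b (0.740) and control replicate 6 for Ndufa4 (0.664). In mild kidneys, replicate 4 was the highest for Ndufs1 (0.685) and replicate 3 for Ndufs7 (0.611).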

How the results depend on the processing

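The median change of the members stayed negative under every alternative in the comparisons of mgb-/-, mild, moderate and severe kidneys with controls, whereas the counts of calls moved widely. Left-out kidneys gave counts of 2 to 12 for mgb-/-, 0 to 2 for moderate and 6 to 42 for severe kidneys, and severe medians of -0.43 to -0.18. The moderate count was 2 without moderate replicate 2, moderate replicate 5 or severe replicate 5. Of all features 2.45%, 2.08% and 2.07% were then called lower, close to the members' share. Without severe replicates 4 and 5, chosen after seeing the data, 16 members were called for mgb-/-, 1 for mild, 2 for moderate and 9 for severe kidneys (median -0.22). In these comparisons 10.2%, 5.61%, 2.49% and 4.91% of all features were called lower. Array weights gave 28, 15 and 16 calls for mgb-/-, mild and moderate kidneys, of which 27, 14 and 15 were lower (18.2%, 14.6% and 11.3% of all features), and a severe median of -0.21. Quantile normalization and the authors' table gave medians of -0.13 for mgb-/- kidneys and -0.049 and -0.046 for mild ones. Scaling by the median shifted all features by -0.15 and gave medians of -0.39, -0.30, -0.35 and -0.54 for mgb-/-, mild, moderate and severe kidneys. It gave 11 calls for mgb-/-, with 10% of all features called lower. For mgb-/- the filter on all arrays gave 8 calls among 89 members (12% of all features called lower), normexp 8 (8.24%) and a 2-fold minimum 0. Slides 2 and 3 alone gave medians of -0.39 and -0.11. For severe kidneys the fit on compared groups gave 0 calls (2.67% of all features called lower), no filter 15 (5.4%), normexp 37 (10.9%) and quantile normalization 12 (6.91%, median -0.25). A 2-fold minimum gave 1 call, and the share of all features under it is not given here for mgb-/- or severe kidneys. The authors' table gave a median of -0.25. For mild kidneys the fit on compared groups gave 15 calls (11.6% of all features called lower). The cause of these moves was not tested.

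Severe against mild had medians of -0.097 with array weights, -0.068 without severe replicates 4 and 5, and -0.28 to -0.031 with 1 kidney left out. The slope had -0.031 without those 2 kidneys and -0.13 to -0.017 with 1 left out, and moderate against mild -0.14 to 0.0099. Severe against moderate had -0.23 to 0.0069 with 1 left out. These comparisons called 0 members under all alternatives run (limma).

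Replicate numbers did not pair the kidneys: the correlation between same-numbered kidneys ran from -0.55 to 0.65, with a median of 0.00464. With the replicate number as a block, 3 members were called for mgb-/- and 5 for severe kidneys, where 4.5% and 5.16% of all features were called lower. The share of severe members called was then close to the general share.

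Signs were compared only for members named by rule, over all mgb-/- kidneys and in severe ones. Other members could change too, such as Ndufa5 in severe kidneys (-0.13, and 0.08 without severe replicate 5). Some of the members named by rule changed sign. Their changes lay between -0.18 and 0.12 in the comparison concerned, except for Ndufaf5 (-0.28 over all mgb-/- kidneys), and none was called there with the settings of the report. Ndufaf5 was called in severe kidneys, and over all mgb-/- kidneys with the authors' table, array weights, scaling by the median or moderate replicate 5 left out. Cox4i2 was called in severe kidneys with the slide as a block. Over all mgb-/- kidneys, the authors' table gave 0.024 for Atp5a1, 0.048 for Cox7a1 and 0.029 for Cox7a2l, and quantile normalization 0.0059, 0.079 and 0.033. Array weights gave 0.028 for Atp5g3, 0.041 for Cox6a1 and 0.057 for Cox7a1, and omission of severe replicates 4 and 5 gave 0.014, 0.035 and 0.023, with -0.017 for Ndufa4l2. Scaling by the median gave -0.041 for Cox4i2, -0.097 for Cox7b and -0.10 for Ndufa4l2, and the mean of probes 0.058 for Ndufaf5. With 1 kidney left out, the range was -0.082 to 0.029 for Atp5g3, -0.056 to 0.047 for Cox6a1, -0.13 to 0.045 for Cox7a1 and -0.024 to 0.13 for Ndufa4l2. In severe kidneys array weights gave 0.051 for Atp5g3, 0.086 for Cox6a1, 0.15 for Cox7b and 0.046 for Cox8a, and omission of severe replicates 4 and 5 gave 0.035, 0.082, 0.11 and 0.031. The authors' table gave 0.11 for Cox7b and 0.010 for Cox7a2l, and quantile normalization 0.092 and 0.023. With 1 kidney left out, the ranges were -0.26 to 0.0036 for Atp5a1, -0.16 to 0.041 for Atp5g3, -0.23 to 0.0092 for Cox4i1, -0.11 to 0.095 for Cox6a1, -0.095 to 0.16 for Cox7b and -0.19 to 0.038 for Cox8a, each highest without severe replicate 5.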
